A study of Mus musculus with 2 samples.

Results

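The 52 genes described here encode the machinery that copies the genome and moves a cell from one phase of its cycle to the next. They were chosen by name, as a fixed list of cell cycle and replication genes, and they make up 52 of the 21938 protein-coding genes that GENCODE vM21 places on the nuclear chromosomes of the mouse genome build GRCm38. The data are ATAC-seq peak lists, in which a peak marks DNA that the Tn5 transposase could reach. The cells were LβT2 cells, an immortalized mouse gonadotrope line that came from pituitary tumours of mice carrying the SV40 T antigen under the rat LHβ regulatory region. All samples were at passage 21 and received pulses of 2 nM GnRH every 2 h for 6 h 45 min, which made 4 pulses with the harvest 45 min after the last of them. There were 2 replicate samples of this 1 condition. Since samples without GnRH were not analysed here, nothing below is an effect of GnRH, and no groups of samples were compared. The labels do not say whether the replicates came from separate cultures. A line grown from a tumour under T antigen stands for proliferating gonadotrope-like cells rather than for the resting gonadotropes of a pituitary.

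In the G1 phase, the origin recognition complex (ORC) sits on replication origins, where Cdc6 and Cdt1 load the ring of MCM proteins that becomes the replicative helicase. Cyclins bound to cyclin-dependent kinases (CDKs) drive the passage into S phase, largely by phosphorylating the pocket proteins Rb1, Rbl1 and Rbl2, which otherwise hold back the E2F transcription factors, and the INK4 and CIP/KIP inhibitors block these kinases. E2F factors bind the promoters of many replication genes, while many genes of mitosis carry a cell cycle genes homology region (CHR) that binds the MuvB core of the DREAM complex. The T antigen is known to bind the pocket proteins and p53, whose own gene, Trp53, and whose antagonist, Mdm2, are also on the list.

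The lists held 58519 peaks in replicate 1 and 64984 in replicate 2. The lists lack read totals, but the background of the peak caller can be solved from the peaks. It was 3.05 tags in replicate 1 and 3.54 in replicate 2. No peak had fewer than 10 tags at its summit in replicate 1 or 11 in replicate 2. These values depend on the depth and also on the genome size given to MACS2, which the methods name as that of the fly. Absence of a peak therefore means only that no peak was called at these depths and settings. Most summits lay in sequence present at several places in the genome, 66.9% in replicate 1 and 61.1% in replicate 2, which is why the copy number of the summit sequence is given below where it exceeds 1. The promoters of 7 of 10 gonadotrope marker genes held a peak in replicate 1 and those of 8 in replicate 2, and none of 7 marker genes of other pituitary lineages did in either. Lhx3 and Pitx1 were the gonadotrope markers without one.

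The promoters at which the results below can be read in the sequence are shown first. All were taken from the RefSeq promoter table of build GRCm38.p6 and run 5′ to 3′ on the strand of the gene, from 170 bases before the start site to 28 bases from the start site onward. Capitals mark matches to the E2F letters TTTCCCGC, TTTCGCGC, TTTGCCGC or TTTGGCGC, the CHR letters TTTGAA or TTCGAA, the NF-Y letters CCAAT and the CRE letters TGACGTCA, on either strand, so a match on the other strand reads as the reverse complement. GC boxes, with the letters GGGCGG, are not in capitals. A match is a run of letters and not evidence of a bound factor. Mcm3 (chr1:20820285-20820482, minus strand), the helicase subunit with the highest promoter peak of all members, Mcm5 (chr8:75109339-75109536, plus strand) and Mcm6 (chr1:128359678-128359875, minus strand), also helicase subunits, Orc1 (chr4:108579284-108579481, plus strand), an ORC subunit, and E2f3 (chr13:29986036-29986233, minus strand), an activating E2F factor, are shown because they hold E2F letters under a peak of both replicates. Cdk1 (chr10:69352885-69353082, minus strand), the kinase of mitotic entry, is shown because it holds both E2F and CHR letters and had a peak in replicate 2 only. Ccnb2 (chr9:70421527-70421724, minus strand), a mitotic cyclin, and Mcm2 (chr6:88898753-88898950, minus strand), a further helicase subunit, hold CHR letters and no E2F letters, and had no promoter peak in either replicate.
Mcm3: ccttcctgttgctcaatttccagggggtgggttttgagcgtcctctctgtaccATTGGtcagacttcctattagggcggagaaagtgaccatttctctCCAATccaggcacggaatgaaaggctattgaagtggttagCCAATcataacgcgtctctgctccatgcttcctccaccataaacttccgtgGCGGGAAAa
Mcm5: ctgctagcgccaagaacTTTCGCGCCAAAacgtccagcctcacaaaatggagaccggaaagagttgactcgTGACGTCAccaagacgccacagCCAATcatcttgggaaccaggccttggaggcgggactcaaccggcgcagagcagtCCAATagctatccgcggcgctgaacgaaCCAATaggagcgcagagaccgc
Mcm6: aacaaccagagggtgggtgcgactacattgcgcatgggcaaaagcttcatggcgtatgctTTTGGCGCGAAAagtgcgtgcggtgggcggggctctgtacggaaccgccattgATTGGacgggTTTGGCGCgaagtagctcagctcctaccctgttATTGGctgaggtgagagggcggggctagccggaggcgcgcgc
Orc1: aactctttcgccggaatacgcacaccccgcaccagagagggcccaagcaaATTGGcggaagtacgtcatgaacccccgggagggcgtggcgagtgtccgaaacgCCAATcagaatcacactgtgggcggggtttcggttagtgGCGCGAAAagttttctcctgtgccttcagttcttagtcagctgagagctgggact
E2f3: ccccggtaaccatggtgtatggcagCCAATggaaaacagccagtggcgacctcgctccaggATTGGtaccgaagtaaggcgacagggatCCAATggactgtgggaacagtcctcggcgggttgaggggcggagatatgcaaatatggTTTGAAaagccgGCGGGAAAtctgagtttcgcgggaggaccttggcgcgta
Cdk1: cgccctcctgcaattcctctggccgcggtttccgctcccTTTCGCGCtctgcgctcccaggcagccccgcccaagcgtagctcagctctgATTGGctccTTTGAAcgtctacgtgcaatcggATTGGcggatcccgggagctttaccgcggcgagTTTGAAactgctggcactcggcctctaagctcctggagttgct
Ccnb2: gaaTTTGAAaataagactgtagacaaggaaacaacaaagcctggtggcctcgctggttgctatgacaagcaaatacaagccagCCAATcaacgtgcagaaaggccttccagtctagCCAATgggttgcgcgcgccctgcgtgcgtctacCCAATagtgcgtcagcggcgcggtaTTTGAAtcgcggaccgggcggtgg
Mcm2: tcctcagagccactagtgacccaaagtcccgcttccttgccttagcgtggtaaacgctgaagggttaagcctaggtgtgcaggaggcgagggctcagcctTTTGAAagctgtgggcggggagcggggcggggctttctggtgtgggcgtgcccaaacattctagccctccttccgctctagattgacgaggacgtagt

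A promoter peak, meaning a peak that overlaps the 1 kb on either side of any annotated start site of the gene, was found for 32 of the 52 members in replicate 1 (61.5%) and for 40 in replicate 2 (76.9%), a mean of 69.2% ± 10.9 (SD, n = 2). Among all protein-coding genes, 32.9% had one in replicate 1 and 45% in replicate 2. All 32 members with a peak in replicate 1 also had one in replicate 2 (61.5%, against 31.5% of all protein-coding genes with a peak in both). The other 8 members of replicate 2 had none in replicate 1. These were Aurkb, Ccna2, Ccnd3, Cdk1, Cdkn1a, Cdkn1b, E2f2 and Rbl1. The remaining 12 members had no promoter peak in either replicate, namely Bub1, Ccnb2, Ccnd1, Ccnd2, Cdk2, Cdkn1c, Cdt1, E2f4, E2f6, Mcm2, Mdm2 and Rbl2. The excess of the members over all genes was 28.7 percentage points in replicate 1 and 31.9 in replicate 2, larger than the difference between the replicates in this excess. These are bulk samples with no sort by cycle phase named, so a promoter open in fewer cells and one less open in each cell cannot be told apart.

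The height of the promoter peaks, on the −log10 q scale on which MACS2 ranks peaks, set the members apart less than their presence. Where a gene had several promoter peaks the highest was used. The median −log10 q of the members was 8.54 in replicate 1 and 16.6 in replicate 2, against 6.97 and 12.5 over all protein-coding genes with a promoter peak. In rank, the median member stood at percentile 59.4 of these genes in replicate 1 and 62.4 in replicate 2. Of the members, 20 of 32 lay above the median of all genes in replicate 1 and 22 of 40 in replicate 2, with 18 below it there, so members lay on both sides of it. The order of the medians in replicate 1 depended on the lowest peaks. Among promoter peaks of −log10 q of at least 5, both medians were 10.2 and the median member stood at percentile 48.7, and among those of at least 10 the members were lower, with 14.2 against 15.7 and percentile 39.5. In replicate 2 the members stayed higher, with 24.5 against 19.98 among promoter peaks of at least 10. With only promoter peaks of −log10 q of at least 10 counted, 14 members had one in replicate 1 (26.9%) against 11.5% of all protein-coding genes, and 26 in replicate 2 (50%) against 27.3%. The median fold enrichment over the background, as the authors' peak caller gave it, was 5.43 and 7.17 for the members and 4.94 and 6.17 for all genes with a promoter peak.

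**Figure D1:**
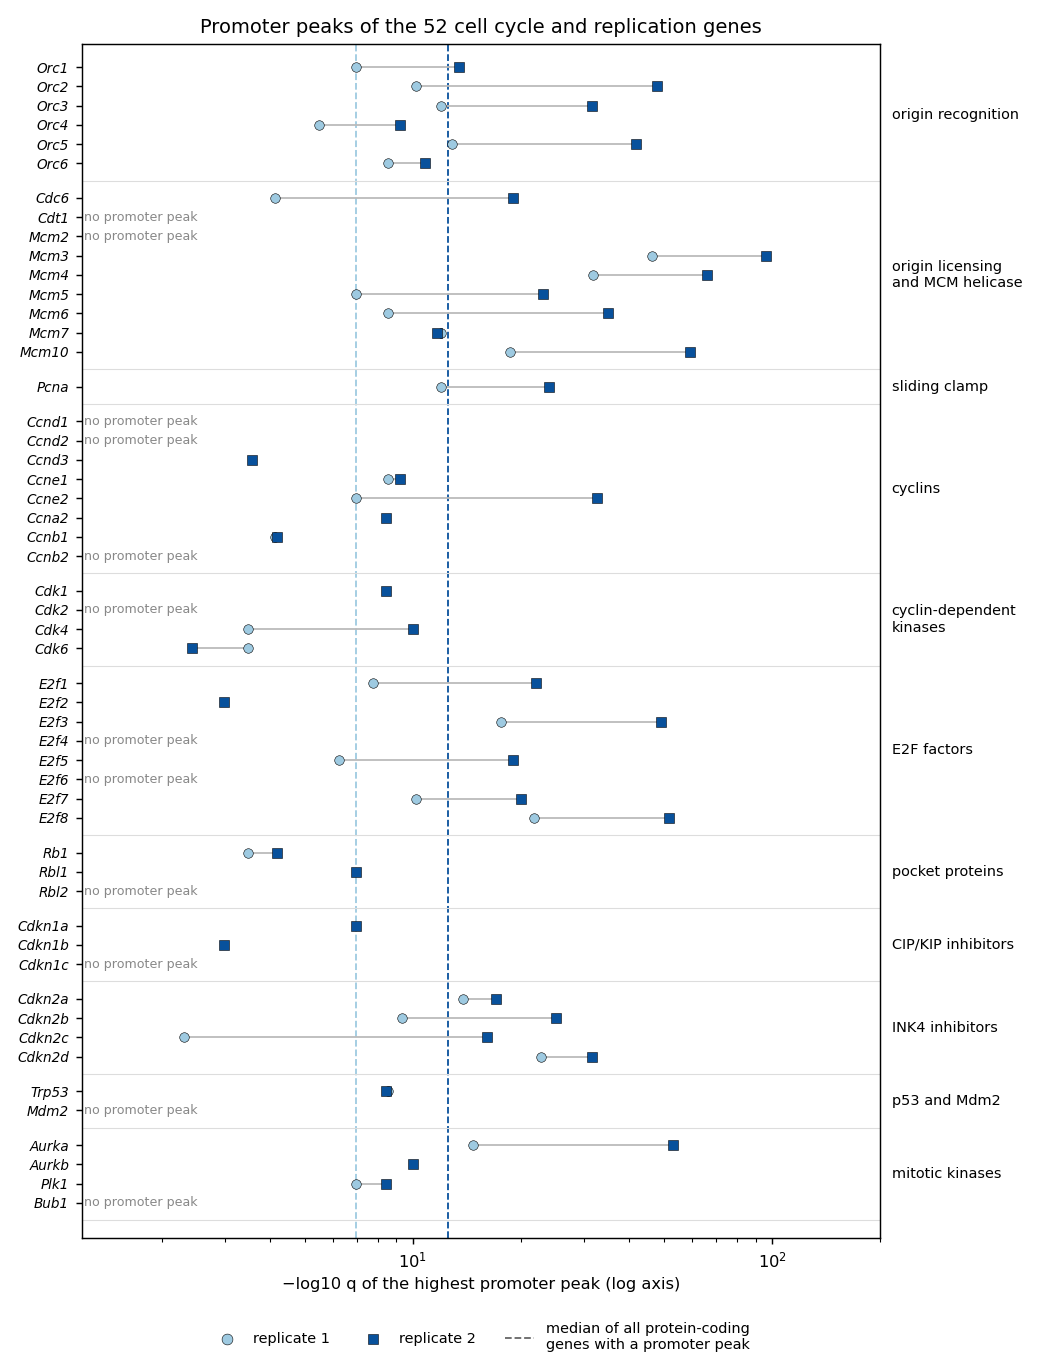
Height of the promoter peak of each of the 52 members, as −log10 q on a log axis, in replicate 1 (circles) and replicate 2 (squares), grouped by role; a grey line joins both replicates of a gene, and dashed lines mark the median of all protein-coding genes with a promoter peak (6.97 in replicate 1 and 12.5 in replicate 2). Mcm3 stands farthest to the right, at 46.3 and 96.2, and 12 members have no point.

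In the account by role that follows, values given in pairs are those of replicate 1 and then of replicate 2, and where no other quantity is named they are the −log10 q of the promoter peak. All 6 subunit genes of the ORC had a promoter peak in both replicates. Orc1, the largest subunit, reached 6.97 in replicate 1 and 13.4 in replicate 2 on the −log10 q scale. Orc2 had 10.2 and 47.9, Orc5 had 12.9 and 41.9, and Orc3 had 11.95 and 31.5. Orc6 stood at 8.54 and 10.8, and Orc4, the lowest of the group, at 5.50 and 9.22. Over the 6 genes the median was 9.37 in replicate 1 and 22.5 in replicate 2. In 4 of these genes the promoter also belongs to a neighbour that starts in the opposite direction or close by, so that the peak cannot be assigned to the ORC gene alone: Orc1 shares it with Prpf38a, Orc3 with Rars2, Orc4 with Mbd5 and Orc6 with Vps35.

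The licensing and helicase genes held the highest promoter peaks of the list, and also 2 genes with none. Mcm3 had 56 tags at the summit in replicate 1 and 96 in replicate 2, and a −log10 q of 46.3 and 96.2. This put it at percentile 98.2 and 98.6 of all protein-coding genes with a promoter peak. Its summit lay 68 bp upstream of the start site in replicate 1 and 56 bp upstream in replicate 2, and the printed promoter lies within the peak in both. Mcm4 followed with 31.7 and 65.8 (44 and 74 tags), at a promoter shared with Prkdc, which encodes the catalytic subunit of the DNA-dependent protein kinase. Mcm10, a replication initiation factor outside the ring, had 18.6 and 59.3 (32 and 69 tags). These 3 genes had the highest mean −log10 q of the 32 members with a peak in both replicates, and E2f8 and Aurka were next.

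The other ring subunits were lower. Mcm6 had a −log10 q of 8.54 and 34.9, and Mcm5 had 6.97 and 23.0. Mcm7, whose promoter is shared with Ap4m1, had 11.95 and 11.7, and was among the 3 members in which replicate 2 was not the higher. Cdc6, a loader of the ring, had 15 and 34 tags. No promoter peak was detected in either replicate for Mcm2, a ring subunit, although a peak stood 3.47 kb upstream of its start in replicate 1 (16 tags) and 3.44 kb upstream in replicate 2 (28 tags), in the promoter of Tpra1. Cdt1, the partner of Cdc6 in loading, had no promoter peak and no other peak in its gene body or within 20 kb, and the nearest summit was 124 kb away in both replicates. Pcna, the sliding clamp that holds the polymerase on DNA, had a promoter peak of 11.95 and 24.02 (25 and 39 tags). Its summit lay 121 bp and 63 bp downstream of the nearest start site. These are different annotated starts, and the summits were 289 bp apart.

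Among the cyclins, 3 of 8 genes had a promoter peak in replicate 1 and 5 in replicate 2. Of the D cyclins, which partner Cdk4 and Cdk6 in G1, Ccnd1 and Ccnd2 had none in either replicate, and Ccnd3 had one of 15 tags in replicate 2 only (−log10 q 3.57). Ccne1 and Ccne2 encode the E cyclins, which partner Cdk2 at the entry into S phase. The promoter peak of Ccne1 had a −log10 q of 8.54 and 9.22, and that of Ccne2 had 6.97 and 32.6, so that Ccne2 was the highest cyclin in replicate 2 and Ccne1 in replicate 1. Ccna2, the cyclin of S phase and G2, had a peak in replicate 2 only (8.44). Of the B cyclins of mitosis, Ccnb1 had a low peak of 15 and 16 tags (4.13 and 4.19), and Ccnb2 had none. No cyclin reached a −log10 q of 10 in replicate 1, and Ccne2 alone did in replicate 2.

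The catalytic partners of the cyclins were low as well. Cdk4 reached a −log10 q of 3.49 and 10.0. Cdk6 had 3.49 and 2.43, the lowest mean of all members with a peak in both replicates, and its peaks do not overlap between the replicates: the summit of replicate 1 lay 195 bp upstream of a start site, in sequence present at 3 places in the genome, and that of replicate 2 lay 176 bp downstream. Cdk1 had a peak in replicate 2 only (22 tags, 8.44), which covers the whole printed promoter. Cdk2 had no promoter peak, and its nearest peak was 8.13 kb away at the promoter of Rab5b in both replicates.

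The E2F genes fell into unequal groups. E2f3 had a −log10 q of 17.6 and 49.1, and E2f8, an atypical E2F that acts as a repressor, had 21.7 and 51.6. E2f7, the other atypical E2F, had 10.2 and 19.98, E2f1 had 7.74 and 22.0, and E2f5, a factor that works with the pocket proteins, had 18 and 34 tags. E2f2 had a peak of 14 tags in replicate 2 only (2.99). E2f4, the main E2F of resting cells, and E2f6, a repressor that does not bind pocket proteins, had no promoter peak. The peak of E2f3 lay at the upstream of its 2 start clusters, and none was found at the starts about 1.67 kb to 1.82 kb further into the gene.

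The pocket protein genes had low peaks or none. Rb1 had a −log10 q of 3.49 and 4.19 (14 and 16 tags). Rbl1, which encodes p107, had a peak in replicate 2 only (20 tags, 6.93), with its summit 2 bp from a start site. Rbl2, which encodes p130, had no promoter peak, and its nearest summit lay 12.6 kb from a start site in replicate 1 (11 tags) and 1.91 kb from an internal start in replicate 2 (12 tags). Near the edge of the promoter window, the summit of the Trp53 peak lay 948 bp and 997 bp upstream of the nearest Trp53 start, inside the promoter of Wrap53, which starts in the opposite direction. Trp53, which encodes p53, thus had a peak of 8.54 and 8.44 (21 and 22 tags) that was lost with a promoter of 500 bp. Mdm2, which encodes the ubiquitin ligase of p53, had no promoter peak and no other peak within 20 kb, and the nearest summit lay 30.5 kb away in replicate 1 and 30.6 kb in replicate 2.

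The inhibitors of the CDKs divided by family. All 4 INK4 genes had a promoter peak in both replicates. The INK4 proteins bind Cdk4 and Cdk6, but Cdkn2a also encodes Arf. Its peak stood at the Arf start, with none at the start of its INK4 protein, as described below. Cdkn2d had a −log10 q of 22.8 and 31.5, Cdkn2a had 13.8 and 17.1, and Cdkn2b had 9.36 and 25.1. Cdkn2c had 2.31 in replicate 1, the lowest value of all members there, and 16.1 in replicate 2. Of the 3 CIP/KIP genes, whose products bind cyclin and CDK together, none had a promoter peak in replicate 1. Cdkn1a, which encodes p21, had one in replicate 2 (20 tags, 6.93), and so did Cdkn1b, which encodes p27 (14 tags, 2.99). Cdkn1c, which encodes p57, had none, and the nearest summit was 88.1 kb and 87.6 kb away. With 4 genes against 3, this contrast is a description of these genes.

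The start sites of Cdkn2a and Cdkn1a tell apart transcripts that differ in function or start. The 2 starts of Cdkn2a give rise to different proteins, the upstream one to Arf and the downstream one to INK4a. The peak stood at the upstream start (position 89294653 of chromosome 4), with its summit 184 bp and 173 bp upstream of it. No peak was found within 1 kb of the downstream start (position 89282192) in either replicate. For Cdkn1a, no peak was found at the first start cluster (position 29090976 of chromosome 17), and the peak of replicate 2 stood at the second (position 29093769). A further single-copy peak lay in an intron of Cdkn1a, 1.73 kb from the nearest start, with 18 tags in replicate 1 and 21 in replicate 2. A p53 site was searched as 2 adjacent half-sites with no spacer. The CWWG core of each, where W is A or T, had to be intact, and at most 2 mismatches were allowed elsewhere. Sites with a spacer or a changed core were not searched. This search found 2 matches in or near Cdkn1a and 4 in or near Mdm2, and none of them lay in a peak of either replicate. The nearest of them to a start lay 39 bp upstream of the first Cdkn1a cluster.

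The mitotic kinases were mixed. Aurka, the kinase of the spindle poles, had a −log10 q of 14.7 and 52.9 at a promoter shared with Cstf1. Aurkb, the kinase of the chromosomal passenger complex, had a peak in replicate 2 only (24 tags, 10.0). Plk1, a kinase of mitotic entry and spindle assembly, had 6.97 and 8.44. Bub1, a kinase of the spindle checkpoint, had no promoter peak. Sharing of a promoter peak with another coding gene was about as frequent among the members as among all genes. It applied to 8 members in each replicate, 25% of those with a peak in replicate 1 and 20% in replicate 2, against 24.5% and 23.6% of all protein-coding genes with one.

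**Figure D2:**
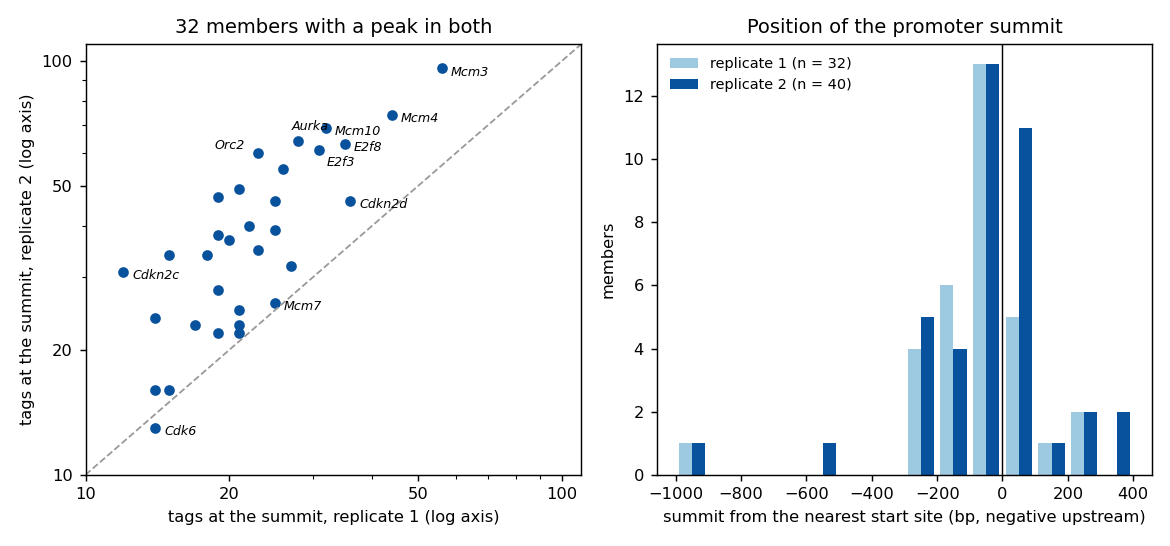
Left, tags at the promoter summit in replicate 1 and replicate 2 for the 32 members with a peak in both (log axes, dashed line at equality). All of them but Cdk6 have more tags in replicate 2. Right, number of members by the distance of the promoter summit from the nearest start site in bins of 100 bp, negative values upstream; 18 of 32 summits in replicate 1 and 24 of 40 in replicate 2 lie within 100 bp of it.

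The members kept much the same order in both replicates. Over the 32 members with a peak in both, Spearman's rho of −log10 q between the replicates was 0.760, against 0.757 over the 6902 protein-coding genes with a peak in both. These points share the libraries and their depth, and the coefficient is a description. In 31 of the 32 members the peaks of the replicates overlapped, Cdk6 being the exception, and the median distance between the summits was 44 bp. Replicate 2 had the higher −log10 q in 29 of the 32, and in 92.7% of all such genes, so the higher values of replicate 2 were not particular to the members. The summit lay within 100 bp of a start site in 56.3% of members in replicate 1 and 60% in replicate 2, against 48.9% and 55.4% of all protein-coding genes with a promoter peak. The summit sequence was single-copy in 31 of 32 members in replicate 1 (96.9%) and in all 40 in replicate 2. Over all protein-coding genes with a promoter peak it was single-copy in 91.6% and 93.6%, so this was not particular to the members.

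Promoters of the members differ from those of other genes in composition. By a CpG-rich promoter is meant one in which, at any start site, the surrounding 1 kb has a GC content of at least 55% and a ratio of observed to expected CpG of at least 0.65. This held for 39 of the 52 members (75%) and for 42.3% of all protein-coding genes. Among the CpG-rich genes, 66.7% of members had a promoter peak in replicate 1 and 79.5% in replicate 2, against 51.3% and 70.7% of all such genes. Among the others, 6 of 13 members had one in replicate 1 (46.2%) and 9 in replicate 2 (69.2%), against 19.4% and 26.2%. The difference from all genes was thus smaller within the CpG-rich class, at 15.4 and 8.78 percentage points, than over the whole list. Members also have more annotated start sites, a median of 5 against 3, so their windows cover more sequence. The part that composition and start sites had in the share of members with a peak was not tested.

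The 12 members without a peak were not poor in CpG as a group. Of them, 8 are CpG-rich. GC content is taken here as the mean over the 1 kb around every annotated start of a gene, internal starts included. It can therefore differ from that of the promoter with the peak. The median of this mean was 56.9% in the 12 members, against 53.7% for the 32 members with a peak in both replicates. Over all protein-coding genes the order was the other way, with 50.2% in genes without a peak and 55.02% in genes with one in both. The 7 members with a mean GC content between 45% and 50% all had a peak in both replicates, against 30.9% and 39.7% of all protein-coding genes in that range. Mcm4, Mcm6, Orc3 and Rb1 among these 7 are nevertheless CpG-rich at a start, whereas Mcm10, Orc4 and Orc5 are not. The low mean thus does not describe the promoter with the peak. Of the 16 members between 55% and 60%, 7 had a peak in replicate 1 and 10 in replicate 2 (43.8% and 62.5%), near the 42.7% and 59.4% of all genes in that range.

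Other genes of the cell cycle were read in the same way. A list of 99 further genes of replication, nucleotide supply, the DREAM complex, CDK activation and mitosis had a promoter peak in 55 cases in replicate 1 (55.6%) and 87 in replicate 2 (87.9%). The 12 of them without one in either replicate were Aurkc, Ccna1, Ccnb3, Dctd, Foxm1, Mcmbp, Prim1, Rfc2, Tfdp1, Timeless, Tipin and Tyms. Among these, Ccna1, Ccnb3 and Aurkc are known for their roles in germ cells, Timeless and Tipin form a fork protection complex, and Foxm1 is a transcription factor of mitotic genes. In replicate 1 the share of the members was above that of these genes, and in replicate 2 it was below, so no order between the lists held in both replicates. The phase lists used by the study for single cells, 552 genes in all, 22 of which are members, had a peak in 62.1% and 83.5%. By phase the shares were 65.98% and 87.6% for G1/S, 67.6% and 86.7% for S, 65.9% and 83.7% for G2/M, 60.4% and 82.5% for M, and 59.1% and 81.8% for M/G1. A promoter peak was thus found for most genes of every phase, with G1/S and S above M and M/G1 in both replicates. These differences were not tested.

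**Figure D3:**
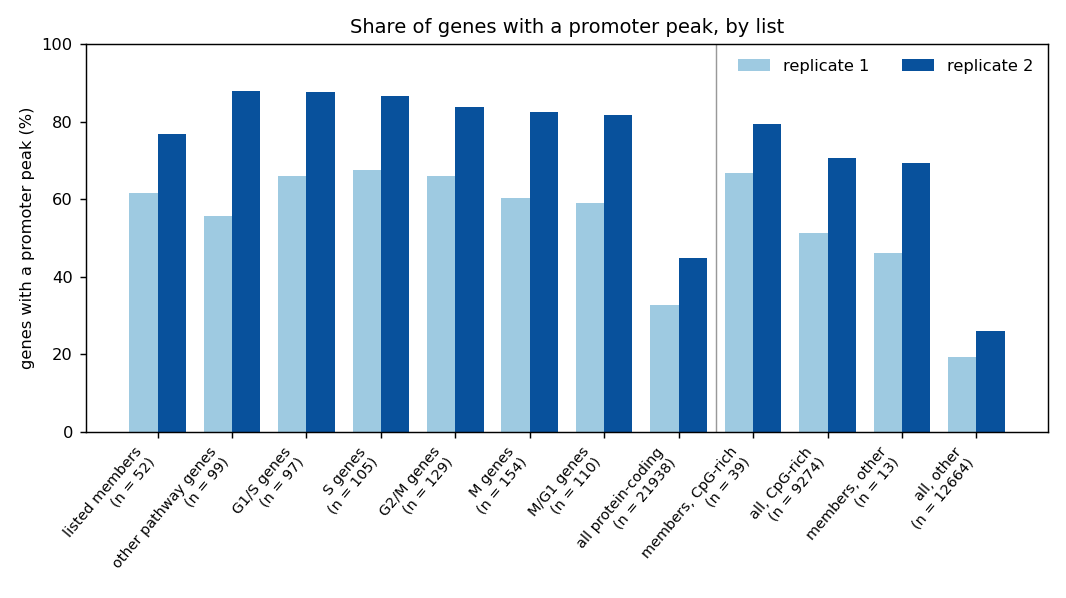
Percentage of genes with a promoter peak in replicate 1 (light bars) and replicate 2 (dark bars) for the 52 members, 99 other pathway genes, 5 phase lists and all 21938 protein-coding genes, and, right of the line, for members and all genes split by CpG-rich promoters; n is given under each bar group. Members stand at 61.5% and 76.9%, all protein-coding genes at 32.9% and 45%.

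The sequence of the promoters was searched in RefSeq windows from 250 bases before to 50 bases after the start, of which 52 belong to 42 of the members and 20150 to 16522 protein-coding genes. Mcm4, Ccnd1, Ccnd2, Ccne2, Ccna2, E2f4, E2f5, Rb1, Cdkn1c and Aurkb are the other 10 members. E2F letters were found in 15 of the 52 promoters (28.8%) and in 2.87% of all. The CCAAT letters of NF-Y were found in 61.5% against 37.8%, the GC box in 78.8% against 47.8% and the CRE in 5.77% against 2.31%. CHR letters, which are short and common, were found in 23.1% against 16.9%. The AP1 letters TGACTCA or TGAGTCA were in none of the 52, against 4.65% of all, a share that corresponds to few promoters in a set of this size. The E2F share of members was similar within 100 bp of the promoter summits, 31.3% in replicate 1 and 30% in replicate 2, against 3.33% and 3.04% at the promoter summits of all protein-coding genes.

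The share of promoters with E2F letters differed by role. The licensing and helicase genes held them in 6 of 9 promoters, the CDKs in 2 of 4, the pocket proteins in 1 of 2, the E2F genes in 3 of 8, the ORC genes in 2 of 9 and the INK4 genes in 1 of 6. None were found in the 5 promoters of the 4 cyclin genes in the table, the 3 of the mitotic kinases, the 3 of the CIP/KIP genes, the 2 of Trp53 and Mdm2 or that of Pcna. Most of these sets are too small for an order. As the printed sequences show, Mcm6 held 3 matches, with first letters 110, 106 and 47 bases upstream of the start, of which the upstream matches overlap on opposite strands, and Mcm5 held an overlapping pair at 153 and 149 bases upstream. Mcm3 had its matches downstream, at 19 and 38 bases after the start, of which the former is in the printed stretch. Orc1 held one at 27 bases upstream and E2f3 one at 11 bases upstream, beside CHR letters at 23 bases upstream. CHR letters were found in all 3 promoters of mitotic kinases, those of Aurka, Plk1 and Bub1, and all lie downstream of the start, at 32, 30 and 14 bases. Ccnb2 held CHR letters at 167 bases upstream and at 4 bases after the start, the latter behind 3 CCAAT matches at 87, 54 and 21 bases upstream. Cdk1 held CHR letters at 71 and 15 bases upstream. Its CCAAT matches, on the other strand, lay at 208, 80 and 48 bases upstream, the first of them outside the printed stretch.

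The same 2 runs of letters split the phase lists, here counted without the members. E2F letters were in 20.5% of G1/S promoters, 10.4% of S, 4.27% of G2/M, 3.68% of M and 2.54% of M/G1. CHR letters were in 9.64% of G1/S promoters, 13.5% of S, 43.6% of G2/M, 35.6% of M and 17.8% of M/G1. The shares of these lists with a promoter peak, members included, had narrower ranges, 59.1% to 67.6% in replicate 1 and 81.8% to 87.6% in replicate 2. Neither difference between phases was tested.

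**Figure D4:**
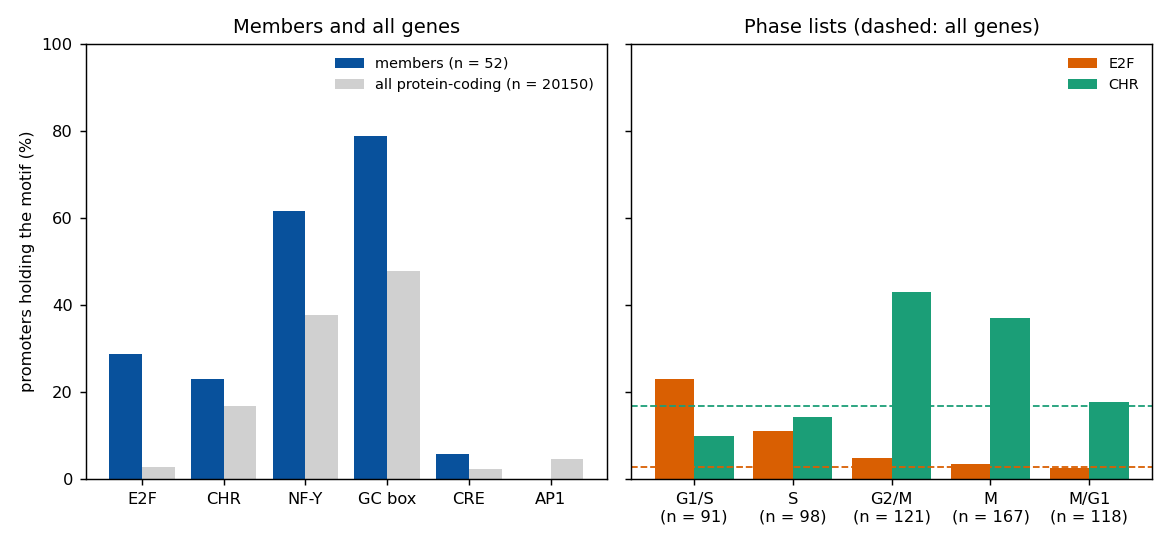
Left, percentage of RefSeq promoters that hold each run of letters, for 52 promoters of members (blue) and 20150 promoters of protein-coding genes (grey); E2F letters stand at 28.8% and 2.87%. Right, percentage with E2F letters (orange) and CHR letters (green) in the 5 phase lists, members included, with dashed lines at the share over all promoters; n is the number of promoters.

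Among the members, the share with a peak in replicate 1 was the same with and without E2F letters. Of the 15 members with E2F letters, 10 had a promoter peak in replicate 1 (66.7%) and 13 in replicate 2 (86.7%), and of the 27 other members with a RefSeq promoter 18 had one in replicate 1 (66.7%) and 21 in replicate 2 (77.8%). Cdt1 and Cdk2 hold the letters and had no promoter peak. Over all protein-coding genes, a peak was found for 52.6% and 71.7% of the 548 genes with the letters and for 33.4% and 45.9% of those without, and among CpG-rich genes these shares were 57.7% and 77.0% against 51.8% and 71.4%. CHR letters were in the promoters of 4 of the 8 members with a RefSeq promoter and no peak in either replicate, namely Mcm2, Ccnb2, Rbl2 and Bub1, and of 6 of the 28 members with a peak in both (21.4%). Over all protein-coding genes these shares were 22.4% without a peak and 16.8% with a peak in both.

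Beyond the promoters, 67 peaks of replicate 1 and 79 of replicate 2 lay in the body of a member or within 20 kb of it, counted once for each member. In replicate 2 the peak at chr4:89288987-89289222 is counted for both Cdkn2a and Cdkn2b. At least one such peak was found for 31 members in replicate 1 (59.6%, against 55.7% of all protein-coding genes) and 35 in replicate 2 (67.3%, against 64.6%). Counted per length, the members had 1.91 peaks per 100 kb in replicate 1 and 2.25 in replicate 2, and all protein-coding genes had 1.91 and 2.25. Outside their promoters, the members and all genes thus had the same density of peaks to the digits given. The other pathway genes had a lower density, 1.13 and 1.62, and so did the phase lists, 1.31 and 1.83. Counted per gene, the members had 1.29 and 1.52 such peaks and all protein-coding genes 1.70 and 2.00. Of the members' peaks outside their promoters, 23 in replicate 1 and 33 in replicate 2 lay in the promoter of another coding gene. A single-copy summit was found in 39 and 53 of them. The same counts were not made for all protein-coding genes.

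A peak outside the promoter that was shared by the replicates with a −log10 q of at least 10 in both was found for 16 members. The share of all protein-coding genes with such a peak was not computed, so this count and its parts describe the members only. For 9 of them it was a single-copy peak in the promoter of another gene. These peaks belonged to Fam210b near Aurka, Tigar near Ccnd2, Bysl and Med20 near Ccnd3, Rab5b near Cdk2, Cdkn2a near Cdkn2b, 1810022K09Rik near E2f5, Nif3l1 and Ppil3 near Orc2, Cds2 near Pcna and Aktip near Rbl2. The highest was that near Aurka, with 43.8 and 36.0. For 4 members, Bub1, Cdk6, Mcm7 and Orc5, the summit sequence occurred at several places in the genome. For Cdk6 this was an intronic peak of 27.2 and 31.5 whose summit sequence was found at 24 places in replicate 1 and 21 in replicate 2, so the lists do not show which of these places the reads came from.

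The remaining 3 members had a single-copy peak away from any coding promoter. Ccne1 had one beyond its 3′ end, 14.3 kb from its nearest start, at chr7:38084816-38085240 in replicate 1 and chr7:38084642-38085385 in replicate 2. It had 36 and 44 tags (−log10 q 22.8 and 29.3), above the 21 and 23 tags of the Ccne1 promoter. Mcm10 had one 11.2 kb upstream of its start, at chr2:5023608-5024427 and chr2:5023719-5024563, with 26 and 29 tags (12.9 and 14.3), lower than its promoter peak. Rbl1 had one past its 3′ end, 52.8 kb from its nearest start, at chr2:157139425-157139774 and chr2:157139377-157139812, with 28 and 45 tags (14.7 and 30.4), where its promoter had no peak in replicate 1 and 20 tags in replicate 2. Below this bar in replicate 1, but high in replicate 2, were single-copy peaks near Ccnd3 and Cdkn2d that also lay outside any coding promoter. The peak of Ccnd3, in an intron 6.00 kb from a start, had 19 tags in replicate 1 (6.97) and 41 in replicate 2 (26.1), against the 15 tags of its promoter in replicate 2. The peak of Cdkn2d, 17.9 kb upstream in replicate 1 and 17.8 kb in replicate 2, had the same values of 19 and 41 tags, and its promoter had 36 and 46. No assignment of these peaks to the genes was made beyond their distance.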

How the data were processed

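The data are ATAC-seq peak lists of 2 replicates, treated alike. The authors mapped the reads with Bowtie2 to GRCm38 (mm10), removed duplicates and ran MACS2 on each replicate alone, with the fly genome size option according to the methods and no input control named; versions are not given in the sources used here. The deposited columns are a score, a fold enrichment, which is a ratio to the MACS2 background, and −log10 values of p and q. The authors' peak start, end and summit positions were used as deposited.

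The rest was computed with numba 0.67.0, scipy 1.17.1, numpy 2.4.6 and pandas 2.3.3 in Python 3.11.15, and plotted with matplotlib 3.10.9. Tags and background were solved from fold and p. A promoter peak overlaps by at least 1 bp the 1 kb on either side of any GENCODE vM21 start. Other peaks have their summit in the gene body or within 20 kb. Copies of a summit were counted by searching both strands of the assembled genome for its central 50 bp. Scripts were tested on simulated data in 8 checks with known answers. With 1 condition there was no test between groups, genes are not replicates, and an SD over 2 samples is imprecise.

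The members and lists were chosen with earlier results of these data known. All members may be named, with full values for those without a promoter peak in a replicate, the 5 highest and 5 lowest, Pcna, the D cyclins, the inhibitors, Trp53, Mdm2, the pocket proteins and members with a strong shared peak outside the promoter. Other pathway genes are named where neither replicate had a promoter peak. Alternatives concerned the q threshold, promoter width, summit position, annotation, copy number and leaving out a replicate. Expression was not analysed here.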

Additional observations from a re-analysis of the deposited data

How the results depend on the processing

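Of 63 values recomputed under another setting, 51 moved by less than the SD between the replicates and 12 by more. For the values that left out a replicate, this outcome was fixed in advance and counts for nothing. The mean of 2 replicates always lies within their SD of either one. No mean over both replicates changed direction, but replicate 1 alone did: among promoter peaks of −log10 q of at least 10, the median of the members was 14.2 against 15.7 for all genes and their median percentile 39.5, and with at least 5 the medians were equal at 10.2 (percentile 48.7). As means of both replicates, the share of members with a promoter peak was 69.2%, and 57.7% with peaks of −log10 q of at least 5 and 38.5% with at least 10. For all protein-coding genes it was 38.9%, and 29.2% and 19.4%. The excess of the members was 30.3 percentage points, and 19.1 with at least 10. The median −log10 q was 12.6 for members and 9.76 for all genes, and 19.4 and 17.8 with at least 10, and the median percentile of members was 60.9, and 55.3 with at least 5 and 50.2 with at least 10. By construction, a higher threshold keeps fewer and higher peaks. Peaks outside the promoter numbered 1.40 per member, against 1.85 per protein-coding gene. The value per member was 0.837 with at least 5, 0.510 with at least 10 and 0.885 with single-copy summits. Without replicate 1 or replicate 2, the share of members ranged from 61.5% to 76.9%. A promoter of 500 bp lost Trp53 in both replicates, one of 2 kb gained Cdkn1a in replicate 1 and Rbl2 in replicate 2, and single-copy summits lost Cdk6 in replicate 1. No paired analysis was possible because there was only 1 group and no test. The 8 members with a promoter peak in replicate 2 only had 14 to 24 tags there, and the part of depth in this was not tested, and Ccnb1, Rb1 and Cdk6, with 16, 16 and 13 tags in replicate 2, had a peak in replicate 1.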
